A study of Mus musculus with 17 samples.

Results

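Glutamine synthetase (Glul) and 6 genes that move or convert glutamate were followed through prostate tumours with stabilised beta-catenin, in a series that held 38971 genes. The 7 genes are Glul, Slc1a2, Slc1a5, Glud1, Oat, Got1 and Gpt2, and their rows were taken by symbol or gene number. The set was chosen by the level of Glul, whose transcript is among the most abundant of a Ctnnb1 tumour, and because Glul is a known beta-catenin target in liver. Its level across the genotypes is therefore described without a test, and the other 6 genes were tested. All 7 genes were listed in each of the 14 libraries used here.

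RNA was sequenced from frozen prostate tissue or prostate tumours of C57BL/6 mice. The Ctnnb1 group (n = 3, about 12 months old) carried 1 Ctnnb1 allele without exon 3. That exon holds the sites that mark beta-catenin for destruction, and without it the protein is stable. The combined group (n = 3, about 6 to 8 months) carried that allele and a further engineered change, and both groups are set against wild-type prostate (n = 3, 12 months). An inducible model of the combined genotype, driven by an inducible CreERT2 and about 15 months old, gave tumours under androgen deprivation (ADT, n = 3) and mock-treated tumours (n = 2). The labels mark the alleles of the Ctnnb1 and combined groups with pc and do not spell out the Cre line. Age and genotype differ together in the combined group and cannot be told apart there. The labels do not say that each library came from a separate animal, so p-values measure the spread between these samples, which may be technical.

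Glutamine synthetase joins ammonia to glutamate and makes glutamine. In liver, beta-catenin signalling keeps Glul in the hepatocytes around the central vein, together with the glutamate transporter Slc1a2 and ornithine aminotransferase, while periportal hepatocytes make urea. Glutamate dehydrogenase and the aminotransferases connect glutamate with the citric acid cycle, with aspartate, with alanine and, through ornithine, with proline and arginine.

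In GENCODE M21 on GRCm38, Glul lies at chr1:153899944-153909723, Slc1a2 at chr2:102658659-102790784, Slc1a5 at chr7:16781340-16798274 and Glud1 at chr14:34310727-34345265. Oat lies at chr7:132557478-132576398, Got1 at chr19:43499752-43524605 and Gpt2 at chr8:85492576-85527560. Glul overlaps Mir8114 and Teddm2, Oat overlaps Fgfr2, and Slc1a2 overlaps Gm13872. Whether strand was used in counting is not given in the sources used here, so reads of overlapping genes may not have been separated. The 250 bases before the annotated start are shown for the 2 genes that stood higher in both tumour groups, Glul and Slc1a2, and for Got1. RefSeq (GRCm38.p6) supplied them, at chr1:153899679-153899928 (+ strand), chr2:102706188-102706437 (+ strand) and chr19:43524606-43524855 (- strand), and capitals mark a match to a searched motif.
Glul: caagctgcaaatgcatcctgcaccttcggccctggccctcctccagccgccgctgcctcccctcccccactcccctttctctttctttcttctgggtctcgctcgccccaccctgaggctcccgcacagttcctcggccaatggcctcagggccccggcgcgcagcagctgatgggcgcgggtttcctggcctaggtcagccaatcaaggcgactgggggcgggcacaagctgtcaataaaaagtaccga
Slc1a2: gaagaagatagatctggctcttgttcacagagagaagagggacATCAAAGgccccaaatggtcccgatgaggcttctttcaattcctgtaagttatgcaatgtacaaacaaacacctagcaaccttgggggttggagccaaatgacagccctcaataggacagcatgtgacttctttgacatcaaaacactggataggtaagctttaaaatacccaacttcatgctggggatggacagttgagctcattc
Got1: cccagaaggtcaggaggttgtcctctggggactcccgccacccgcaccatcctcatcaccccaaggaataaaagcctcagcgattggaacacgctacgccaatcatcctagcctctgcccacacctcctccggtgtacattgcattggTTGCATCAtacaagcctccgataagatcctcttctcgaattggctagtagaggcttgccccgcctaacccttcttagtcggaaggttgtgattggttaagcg
The searches covered both strands, for the ATF4-type word TGATGNAA and for words through which TCF/LEF factors bring beta-catenin to DNA. The TCF/LEF words were CTTTG followed by AA, AT, TA or TT. The Glul window held neither. The Slc1a2 window, which lies inside the longer GENCODE gene, held CTTTGAT on its minus strand 207 bases upstream of the start. The Got1 window held TGATGNAA on its minus strand 102 bases upstream. Of 32851 promoter windows of this length, 14.8% held a TCF/LEF word and 3.45% the ATF4-type word. RefSeq windows of Glud1, Oat and Gpt2 held neither, and Slc1a5 had no entry. A match of letters is not a binding site.

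The values are scaled counts, that is read counts per gene after scaling by a factor for each library and rounding, and their totals say nothing of depth. Over the genes kept, the totals were 26754772 to 27522308 in Ctnnb1 libraries, 26428684 to 27189777 in combined libraries and 37222233 to 38995268 in wild-type libraries. The 10 highest genes took 5.94% to 6.76% in Ctnnb1, 5.32% to 6.28% in combined and 24.9% to 28.2% in wild-type libraries. Scaling each library to an equal total puts the median of all log2 changes at 0.48 (Ctnnb1) and 0.50 (combined), and raises the share of calls that are higher to 78.7% and 82.1%, against 48.5% and 47.9% as deposited. A change below is therefore relative to the median gene, and results that depend on this choice are named. The tissue label was checked with luminal epithelial markers (Krt8, Krt18, Cdh1 and Epcam), whose summed value was 60296 to 83262 in Ctnnb1, 72948 to 103541 in combined and 55278 to 64106 in wild-type libraries. Axin2, a feedback inhibitor and target of Wnt signalling, had 15825, 18451 and 17245 in the Ctnnb1 libraries and 9891, 9466 and 16457 in the combined libraries, against 1777, 2136 and 2278 in wild type.

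Glul, the enzyme that makes glutamine, stood far above wild type in every tumour library. Its scaled counts were 144392, 376950 and 201373 in Ctnnb1 tumours and 175796, 113327 and 122359 in combined tumours, against 27946, 20771 and 25895 in wild-type prostate. The groups did not overlap, and the lowest tumour library of the combined group stood 4.06-fold above the highest wild-type library. The log2 change was 3.17 for Ctnnb1 against wild type and 2.45 for combined against wild type. Over 17 alternatives these changes ranged from 2.79 to 3.91 and from 2.25 to 3.23. Their size depends on the scaling: quantile normalization gave the highest value in both comparisons, and equal totals gave 2.97 for combined. These comparisons share the wild-type libraries and describe the values that chose the gene.

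By value, Glul ranked 5, 1 and 3 among 13905 genes in the Ctnnb1 libraries and 3, 8 and 4 in the combined libraries, against 93, 161 and 101 in wild type. Per kilobase of exon it ranked 12, 2 and 5 of 13119 genes with a length in the Ctnnb1 libraries and 7, 11 and 9 in the combined libraries, against 120, 168 and 121 in wild type. Glul took 0.531%, 1.37% and 0.753% of the kept total in the Ctnnb1 libraries and 0.665%, 0.417% and 0.462% in the combined libraries, against 0.0729%, 0.0558% and 0.0664% in wild type. The spread within the Ctnnb1 group was 2.61-fold and rests on the library with 376950.

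**Figure D1:**
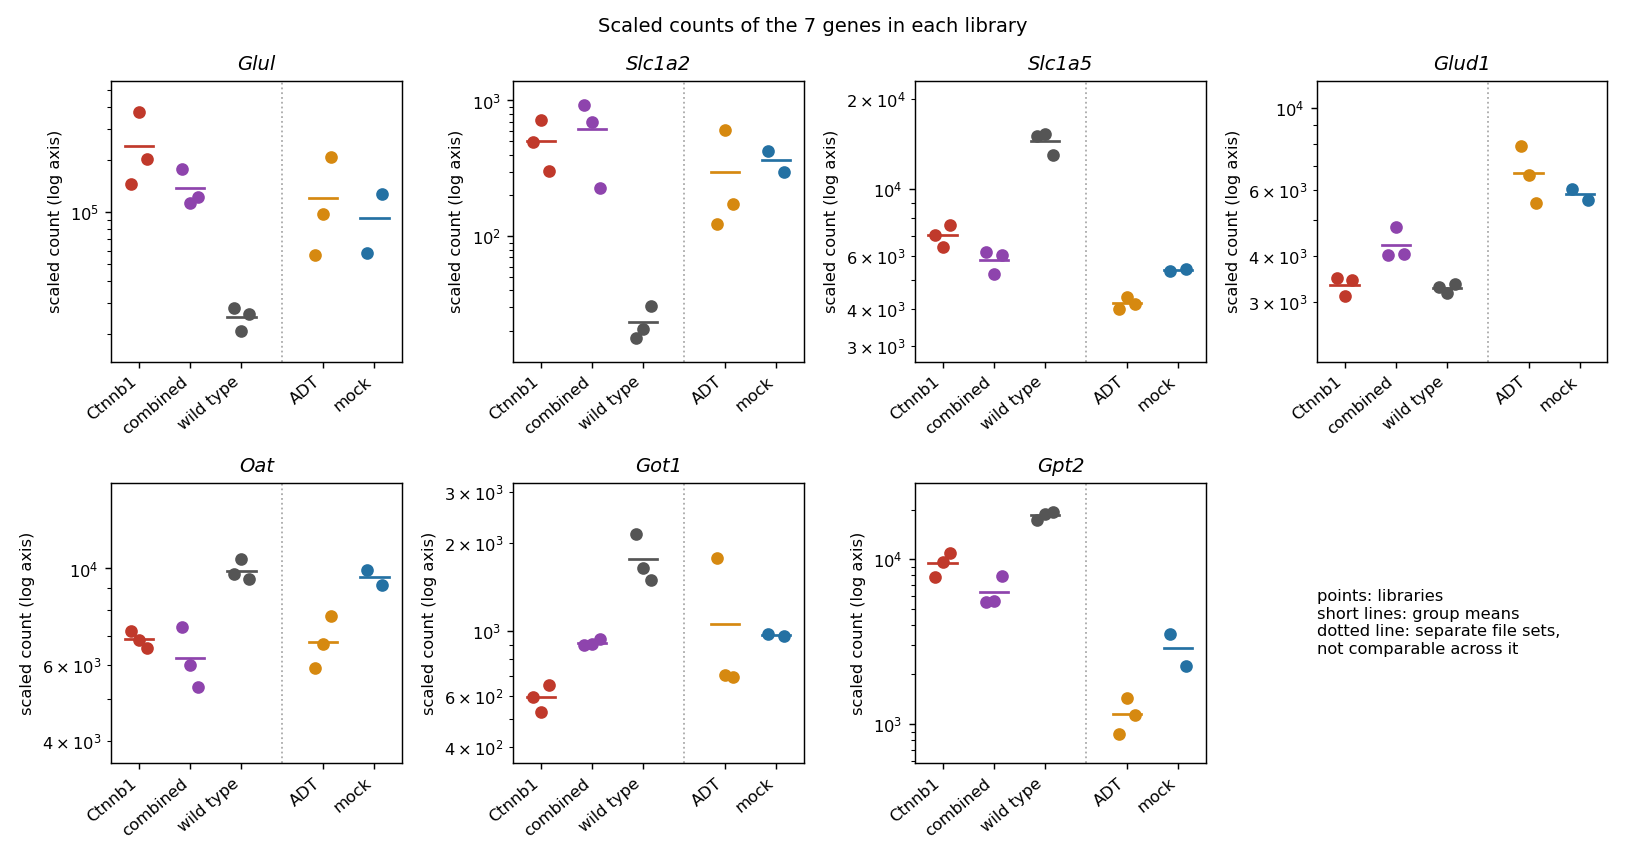
Scaled counts (log axes, each panel with its own range) of the 7 genes in Ctnnb1, combined and wild-type libraries and, right of the dotted line, in ADT and mock libraries of the separate file set; points are libraries and short lines group means. Glul and Slc1a2 stand higher, and Slc1a5, Oat, Got1 and Gpt2 lower, in every Ctnnb1 and combined library than in every wild-type library.

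Of the 6 tested genes, 1 was higher and 4 were lower in Ctnnb1 tumours than in wild type at an adjusted p under 0.05 (limma, adjusted over all genes). In combined tumours 2 were higher and 4 lower. These counts stand beside a background in which 56.9% of 13681 genes were called in the Ctnnb1 comparison (27.6% higher, 29.3% lower) and 56.3% in the combined comparison (27.0% higher, 29.3% lower). Groups did not overlap in 71.3% and 66.1% of genes. In the fit of 9 libraries and 13905 genes that Slc1a2 needed, 58.5% (28.9% higher) and 57.8% (28.3% higher) were called. The log2 changes, all on the scale of log2(scaled count + 1), had a median of -0.01 over all genes for Ctnnb1 and -0.02 for combined.

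Slc1a2, the transporter that clears glutamate from brain synapses and marks perivenous hepatocytes in liver, rose in both tumour groups. It had 491, 721 and 305 in the Ctnnb1 libraries and 927, 691 and 227 in the combined libraries, against 18, 21 and 31 in wild type. Even the lowest tumour library, at 227, was 7.32-fold above the highest of wild type. The log2 change was 4.33 (SE 0.53, adjusted p 2.86e-04, limma) for Ctnnb1 and 4.47 (SE 0.53, adjusted p 2.39e-04) for combined, or 20.1-fold and 22.2-fold. The call held under each of 16 alternatives in both comparisons, with log2 changes of 3.89 to 4.81 and 4.03 to 5.08.

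Slc1a5, the exchanger that brings glutamine into proliferating cells, fell in both groups. It had 7027, 6433 and 7618 in the Ctnnb1 libraries and 6197, 5222 and 6023 in the combined libraries, against 14992, 15277 and 13047 in wild type. Every tumour library was lower than every wild-type library. The log2 change was -1.04 (SE 0.11, adjusted p 5.13e-05, limma) for Ctnnb1 and -1.31 (SE 0.11, adjusted p 1.57e-05) for combined. The call held under each of 17 alternatives, though equal totals cut the changes to -0.55 and -0.79.

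Within a library, the ratio of Slc1a2 to Slc1a5 scaled counts was 0.0699, 0.112 and 0.0400 in Ctnnb1 tumours and 0.150, 0.132 and 0.0377 in combined tumours, against 0.00120, 0.00137 and 0.00238 in wild type. This ratio is independent of the scaling between libraries. Per kilobase of exon, Slc1a5 was the more abundant of the pair in every library.

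Glud1, glutamate dehydrogenase, which releases ammonia from glutamate in mitochondria, was near its wild-type level in Ctnnb1 tumours and higher in combined tumours. It had 3474, 3103 and 3445 in the Ctnnb1 libraries and 4017, 4781 and 4028 in the combined libraries, against 3287, 3168 and 3343 in wild type. The Ctnnb1 and wild-type values overlap, and the log2 difference of 0.03 had a 95% interval of -0.20 to 0.26 (adjusted p 0.810, limma). Under equal totals the same difference was 0.52 and was called (adjusted p 7.54e-04). In combined tumours the log2 change was 0.38 (SE 0.10, adjusted p 0.00941), with no overlap, and the call held under each of 17 alternatives.

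The 3 aminotransferase genes were lower in both tumour groups. Got1, the cytosolic aspartate aminotransferase, had 596, 529 and 656 in the Ctnnb1 libraries and 894, 902 and 942 in the combined libraries, against 2150, 1640 and 1494 in wild type. The log2 change was -1.56 (SE 0.14, adjusted p 2.46e-05, limma) for Ctnnb1 and -0.93 (SE 0.14, adjusted p 4.35e-04) for combined, a 2.94-fold and a 1.91-fold lower level. The groups did not overlap, and the calls held under each of 17 alternatives.

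Gpt2, the mitochondrial alanine aminotransferase, which passes the amino group of glutamate to pyruvate, had 7836, 9672 and 10931 in the Ctnnb1 libraries and 5498, 5567 and 7893 in the combined libraries, against 17312, 18691 and 19420 in wild type. The log2 change was -0.97 (SE 0.23, adjusted p 0.00528, limma) for Ctnnb1, where equal totals ended the call (-0.48, adjusted p 0.0967). For combined it was -1.57 (SE 0.23, adjusted p 3.40e-04), and the call held under each of 17 alternatives.

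Oat, ornithine aminotransferase, is itself a perivenous gene of the liver, where it accompanies Glul. In these tumours it was lower: 7168, 6850 and 6570 in the Ctnnb1 libraries and 7330, 5979 and 5330 in the combined libraries, against 9698, 10511 and 9433 in wild type. The groups did not overlap. The log2 change was -0.53 (SE 0.16, adjusted p 0.0162, limma) for Ctnnb1 and -0.68 (SE 0.16, adjusted p 0.00433) for combined. Under equal totals neither was called, at -0.03 (adjusted p 0.869) and -0.16 (adjusted p 0.379). The Ctnnb1 call was also lost under quantile normalization (adjusted p 0.0600), without wild-type replicate 2 (adjusted p 0.0552) and without Ctnnb1 replicate 15 (adjusted p 0.0504).

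**Figure D2:**
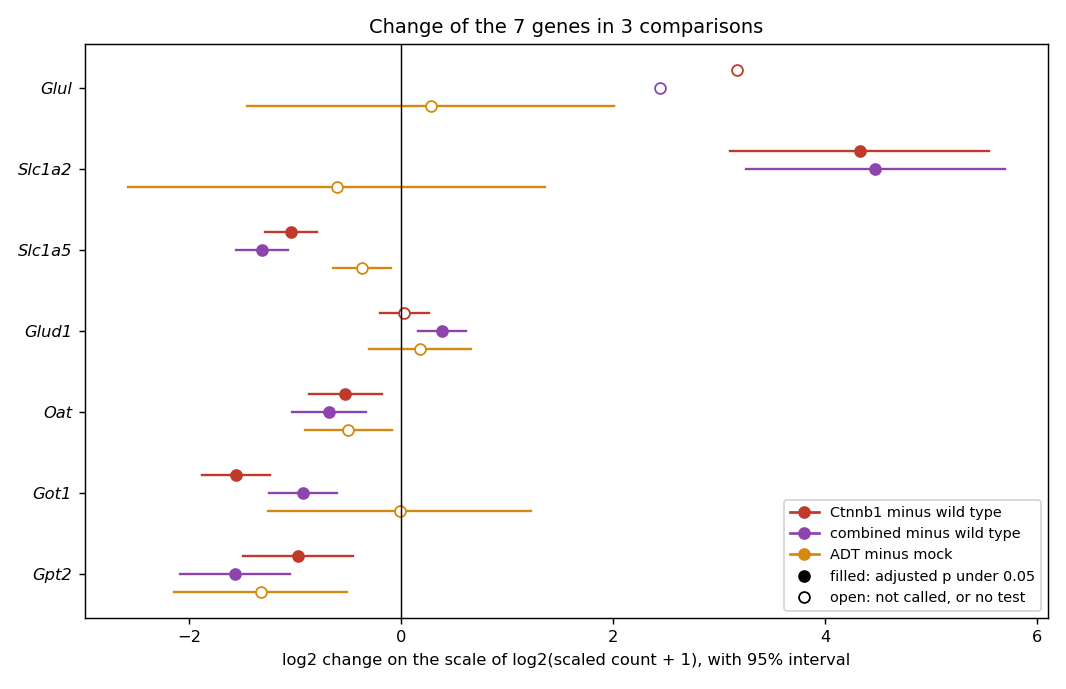
Log2 changes on the scale of log2(scaled count + 1) with 95% intervals (bars) for the 7 genes in Ctnnb1 minus wild type, combined minus wild type and ADT minus mock; filled points were called at an adjusted p under 0.05, and Glul has no test and no bar in the genotype comparisons. Slc1a2 lies at 4.33 and 4.47, whereas Slc1a5, Oat, Got1 and Gpt2 lie between -1.57 and -0.53, and no ADT point is filled.

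The balance among the 7 genes can be read per kilobase of exon, which allows levels of different genes to be compared. Glul made up 89.5% ± 4.20 of their summed level per kilobase in Ctnnb1 tumours and 86.0% ± 2.14 in combined tumours, against 37.6% ± 4.17 in wild type (SD, n = 3 each). In wild type Oat followed with 21.1%, Slc1a5 with 17.4% and Gpt2 with 16.5%, of which Slc1a5 and Gpt2 did not differ beyond their spread. Glud1 had 3.91% and Got1 3.48%, which also lie within their spread, and Slc1a2 had 0.00897%. In Ctnnb1 tumours Oat had 4.16%, Slc1a5 2.43%, Gpt2 2.33%, Glud1 1.15%, Got1 0.338% and Slc1a2 0.0511%. The order of the group means was thus the same as in wild type, with Slc1a2 last despite its large change.

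Beyond the 7 genes, a list of 49 other genes of glutamine and glutamate handling held 44 tested in the genotype comparisons. In Ctnnb1 tumours 7 were higher, 19 lower and 18 not called, with a median log2 change of -0.40. In combined tumours 5 were higher, 18 lower and 21 not called, with a median of -0.34. The list genes called, 26 and 23 of 44, are near the 56.9% and 56.3% called over all genes, of which 27.6% and 27.0% were higher and 29.3% lower in both comparisons. Under equal totals the split became 15 higher and 12 lower (median 0.09) in Ctnnb1 and 13 higher and 12 lower (median 0.16) in combined tumours. That scaling also put the median of all genes at 0.48 and 0.50. It multiplies each library by a single factor and so shifts all genes nearly alike. The gap between the list and all genes could therefore not change, and its holding is no further support.

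Among the genes that rose was Slc7a11, the cystine transporter that exports glutamate in exchange. It had 2079, 1491 and 1640 in the Ctnnb1 libraries and 792, 455 and 2212 in the combined libraries, against 244, 151 and 181 in wild type, with log2 changes of 3.18 (SE 0.51) and 2.29 (SE 0.51). Slc7a6, an exchanger of cationic amino acids and glutamine, rose by 0.80 and 1.05. Ppat, which spends glutamine in the opening step of purine synthesis, rose by 0.76 in Ctnnb1 tumours and by 0.34 in combined tumours, where quantile normalization (adjusted p 0.0778, limma) or leaving out wild-type replicate 2 or combined replicate 12 ended the call. Pfas, a further glutamine-using step of purine synthesis, rose by 0.68 in Ctnnb1 tumours (adjusted p 5.19e-04, limma), and its change of 0.23 in combined tumours was not called (adjusted p 0.0951).

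Among the genes that fell was Asns, asparagine synthetase, which takes its amino group from glutamine. It had 992, 1063 and 993 in the Ctnnb1 libraries and 1089, 1056 and 984 in the combined libraries, against 7973, 9211 and 9284 in wild type. The groups lay far apart, with log2 changes of -3.11 (SE 0.24, adjusted p 1.01e-05, limma) and -3.08 (SE 0.24, adjusted p 1.14e-05). Abat, which breaks down GABA with formation of glutamate, fell by 3.59 and by 2.28 on the log2 scale. Slc1a1, a high-affinity glutamate transporter of the same family as Slc1a2, had 8, 7 and 10 in Ctnnb1 tumours and 20, 10 and 19 in combined tumours, against 90, 88 and 251 in wild type. Its Ctnnb1 mean of 8.33 lies below the lowest gene mean of the 12 genotype libraries, 14.25. Slc1a1 was thus listed only through its values in other groups, and its fall is a description only.

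Pycr1 and Aldh18a1, which make proline from glutamate, fell in both groups. Pycr1, a mitochondrial pyrroline-5-carboxylate reductase, had 322, 285 and 304 in the Ctnnb1 libraries and 578, 444 and 712 in the combined libraries, against 2004, 1916 and 2041 in wild type. Its log2 change was -2.71 (SE 0.24) for Ctnnb1 and -1.81 (SE 0.24) for combined. Aldh18a1, which opens the path out of glutamate, changed by -1.80 and -1.50. Per kilobase within a library, Oat exceeded Pycr1 37.7-fold on average in Ctnnb1 and 18.7-fold in combined tumours, against 8.31-fold in wild type.

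**Figure D3:**
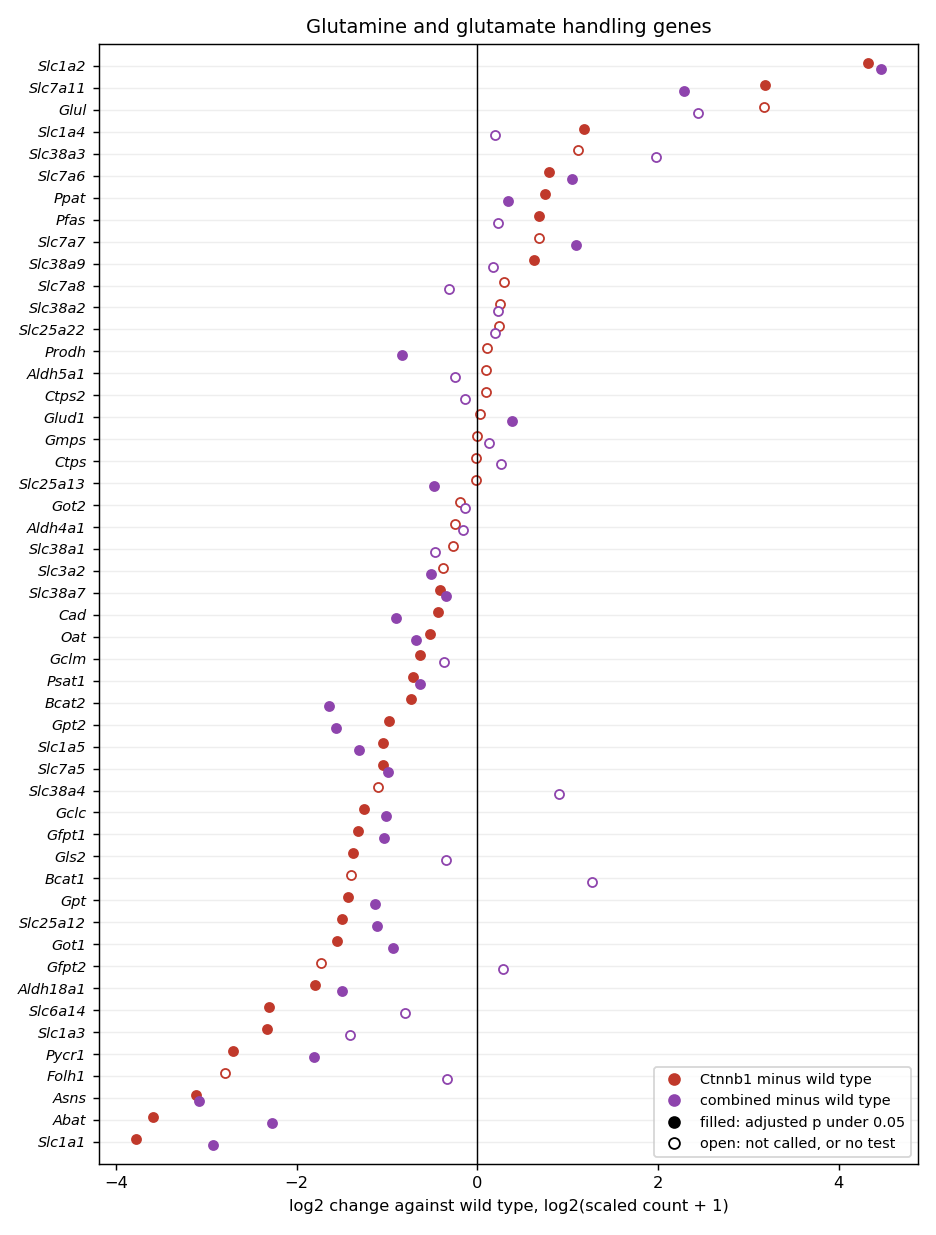
Log2 changes against wild type, log2(scaled count + 1), of the 7 genes and of other listed glutamine and glutamate handling genes, ordered by the Ctnnb1 value, in Ctnnb1 and combined tumours; filled points were called at an adjusted p under 0.05, and open points were not called or, for Glul, not tested. Slc1a2, Slc7a11 and Glul are at the top, and Asns, Abat and Slc1a1 at the bottom. Slc1a1, with a Ctnnb1 mean of 8.33, was listed only through its values in other groups.

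Of 22 other genes of the liver's perivenous beta-catenin program, 17 were tested, and 12 were higher and 1 lower in Ctnnb1 tumours, with a median log2 change of 1.91. In combined tumours 11 were higher and 1 lower, with a median of 1.60. The 11 include Slc13a3, whose wild-type mean of 12.3 lies below the lowest gene mean of the genotype libraries, 14.25. It was thus listed only through its values in other groups, and its rise is no support for the list. Over all genes, 27.6% were higher and 29.3% lower in Ctnnb1 tumours, and 27.0% and 29.3% in combined tumours. The list holds general Wnt feedback genes as well as hepatocyte enzymes. Notum, a secreted Wnt inactivator, had 3738, 4782 and 3291 in Ctnnb1 tumours and 1866, 685 and 2672 in combined tumours, against 70, 116 and 143 in wild type, with log2 changes of 5.20 (SE 0.53) and 3.83 (SE 0.53). Cyp2e1, an alcohol-metabolising cytochrome of perivenous hepatocytes, had 3480, 3857 and 4550 in Ctnnb1 tumours and 951, 14723 and 2126 in combined tumours, against 309, 103 and 395 in wild type. Ahr, the dioxin receptor, rose by 3.10 and 3.16 on the log2 scale. Rhbg, an ammonium transporter, was the listed gene that was lower in both groups, at log2 changes of -1.44 and -2.01. It had 34, 16 and 21 in Ctnnb1 tumours and 17, 14 and 14 in combined tumours, against 56, 69 and 65 in wild type. These tumour values lie near the lowest gene mean of the 12 genotype libraries, 14.25. Its Ctnnb1 call was lost under equal totals, under quantile normalization (-0.61, adjusted p 0.256, limma) and without any of 4 single libraries. Gulo, the last enzyme of vitamin C synthesis, had 297, 1556 and 210 in Ctnnb1 tumours and 1162, 202 and 307 in combined tumours, and was listed at 0, 0 and 4 in wild type. The lowest mean of any gene kept over these 9 libraries was 15.6, against a wild-type mean of 1.33 for Gulo. Gulo was thus listed only through its tumour values, and its rise is no support for the list.

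**Figure D4:**
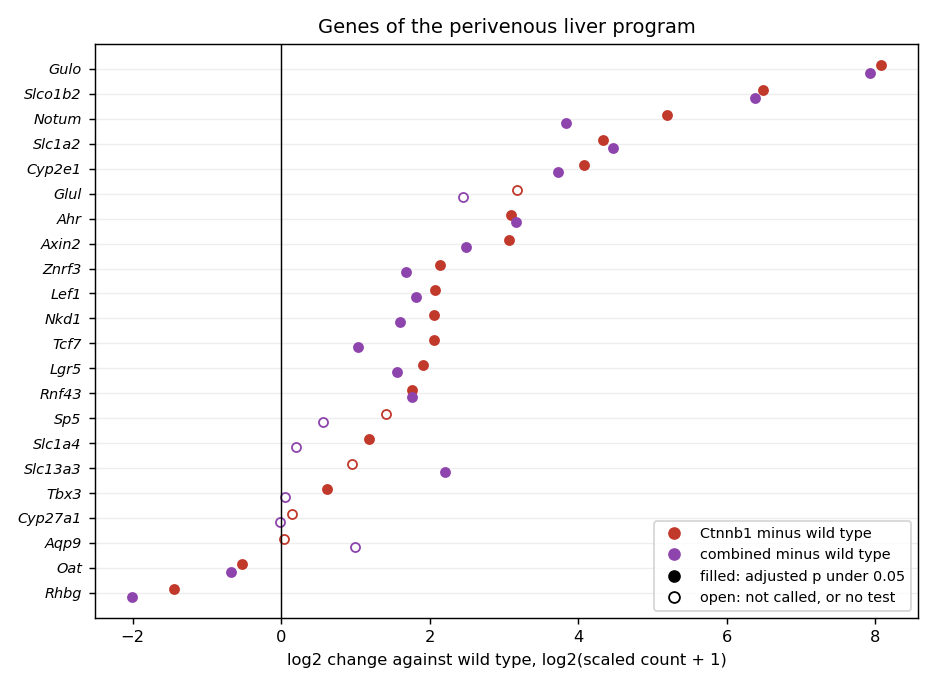
Log2 changes against wild type, log2(scaled count + 1), of perivenous liver genes in Ctnnb1 and combined tumours, ordered by the Ctnnb1 value; filled points were called at an adjusted p under 0.05, and Glul was not tested. Glul and Slc1a2 stand among the higher genes, whereas Oat and Rhbg stand below 0. Gulo and Slco1b2, at or near 0 in wild type, were listed only through their tumour values. Slc13a3, with a wild-type mean of 12.3, was likewise listed only through its values in other groups.

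Markers of other cell types differed between the groups as well. The summed value of 6 smooth muscle markers was 1256 to 2785 in Ctnnb1 tumours and 5019 to 17852 in combined tumours, against 135981 to 175223 in wild type, and 6 of 6 were lower in both comparisons. The 5 secretory prostate markers summed to 131624 to 243608 and 23869 to 111503, against 2155542 to 2264088 in wild type, with 4 of 5 and 5 of 5 lower. The 6 seminal vesicle markers summed to 184 to 4401 in Ctnnb1 tumours and 39386 to 206322 in combined tumours, against 446343 to 4389271 in wild type. Of these, 6 of 6 were called lower in Ctnnb1 and 0 of 6 were called in combined tumours. The 6 skeletal muscle markers summed to 54 to 8954 and 97 to 1059, against 9066 to 123245, with 5 of 6 lower in both. The 6 macrophage markers summed to 5433 to 7994 and 6585 to 20523, against 2300 to 2831, with 5 of 6 and 6 of 6 higher. The 6 fibroblast markers summed to 16596 to 26373 in Ctnnb1 tumours and 35178 to 561354 in combined tumours, against 30165 to 35870 in wild type. These calls stand beside 27.6% of all genes higher and 29.3% lower in Ctnnb1 tumours, and 27.0% and 29.3% in combined tumours. None of these markers was at 0 in a whole group. Their part in the changes of Glul and the other 6 genes was not tested, and in bulk tissue fewer cells of a type and less RNA per cell cannot be told apart.

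Peripheral glial markers, of interest because glia use Slc1a2 and Glul, summed over 4 listed markers to 187 to 281 in Ctnnb1 tumours and 126 to 237 in combined tumours, against 1182 to 1491 in wild type. Of these, 3 of 4 were lower in both comparisons, beside 29.3% of all genes in each. S100b, also a glial marker, had 20, 17 and 16 in Ctnnb1 tumours and 70, 28 and 10 in combined tumours, against 56, 49 and 65 in wild type. The part of these cells in the Slc1a2 and Glul values was not tested. Of 5 hepatocyte markers 2 were listed, with a sum of 3486 to 4561 in Ctnnb1 tumours and 968 to 37886 in combined tumours, against 105 to 400 in wild type. Cyp2e1, itself a perivenous gene with the values given above, was higher in both comparisons and made up most of the Ctnnb1 sum. Alb was near 0 in the Ctnnb1 libraries, at 6, 22 and 11, against 4, 2 and 5 in wild type. In the combined group it had 17, 23163 and 71, and the library with 23163 also had the most Cyp2e1, at 14723, and the least Glul of its group. The part of hepatocyte transcripts in these values was not tested.

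Likeness to Glul was measured as the root mean square difference of centred log2 values over the 9 Ctnnb1, combined and wild-type libraries, among 11676 genes with a mean of at least 100. The 5 nearest genes were Arhgap6 (0.30), Glrx (0.34), Lig1 (0.35), Wipf3 (0.37) and Tcf4 (0.39). They were picked over the libraries that also chose Glul, so their higher tumour means follow from the pick and are a description only. Glrx, a glutaredoxin, averaged 3161 ± 715 in Ctnnb1 and 1709 ± 369 in combined tumours, against 442 ± 141 in wild type (SD, n = 3 each). Tcf4, named alike but distinct from the TCF7L2 partner of beta-catenin, averaged 8719 ± 1303, 5172 ± 1236 and 1192 ± 81.7 in the same groups. Axin2 was 11th in this order. Slc1a2 was 886th, and the other 5 genes lay at 4756 or further down.

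Androgen deprivation of the inducible model tests the 7 genes in libraries that the choice of Glul did not use. Pbsn, the androgen-driven probasin gene, had 0, 1 and 5 under ADT, against 2533 and 2475 in mock. The same 4 luminal markers summed to 42518 to 53905 under ADT, against 79303 to 92224 in mock. At an adjusted p under 0.05, 2 of 23289 genes were called (0.00859%), both higher under ADT (Pycr1 and Tubb4a, a tubulin named after its value was seen), while 3779 (16.2%) had an unadjusted p under 0.05. None of the 7 genes was called by limma, and 3 of 7 had an unadjusted p under 0.05.

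Glul spanned a wide range in both arms, with 56350, 96947 and 206663 under ADT, against 58234 and 126324 in mock. The arms overlap. The log2 difference of 0.28 had a 95% interval of -1.45 to 2.01 (adjusted p 0.874, limma), so that neither a large rise nor a large fall can be told from no change with these libraries. Per kilobase Glul ranked 37, 21 and 12 under ADT and 40 and 16 in mock. It made up 73.2% to 91.1% of the summed level per kilobase of the 7 genes under ADT, against 68.7% to 83.8% in mock. Alb, the serum albumin gene of hepatocytes, had 26204, 212562 and 501486 in the ADT libraries, against 385 and 55 in mock, and its highest library was also the one with the most Glul. Of the other hepatocyte markers, Apoa1 was at 0 in all 3 ADT libraries, against 1 and 0 in mock, and Ttr had 2, 28 and 20, against 11 and 45 in mock. Tat had 26, 79 and 37 under ADT, against 3 and 0 in mock, and Cyp2e1 went the other way, with 184, 963 and 156 under ADT, against 3753 and 2402 in mock. The sum of all 5 was 26416 to 501699 under ADT, nearly all of it Alb, against 2502 to 4153 in mock, nearly all of it Cyp2e1. The part of these transcripts in the Glul values was not tested.

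Gpt2 had the largest difference of the 7 genes. It had 868, 1443 and 1141 under ADT, against 3541 and 2247 in mock, with no overlap. The log2 difference was -1.32 (SE 0.31, 95% interval -2.14 to -0.51, unadjusted p 0.00924, adjusted p 0.186, limma), which did not pass the correction. Per kilobase within a library, Gpt2 exceeded Gpt, the cytosolic alanine aminotransferase gene, 3.33-fold, 2.32-fold and 1.79-fold under ADT, against 11.4-fold and 4.80-fold in mock.

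Oat had 5891, 6686 and 7776 under ADT, against 9914 and 9170 in mock, a log2 difference of -0.50 (unadjusted p 0.0262, adjusted p 0.238, limma). Slc1a5 had 4001, 4380 and 4153 under ADT, against 5353 and 5438 in mock, a log2 difference of -0.37 (unadjusted p 0.0185, adjusted p 0.212). Both were lower in 3 of 3 ADT libraries than in either mock library. Over all genes tested, 33.2% did not overlap between the arms, 16.8% with the lower values under ADT.

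The remaining members overlapped between the arms. Slc1a2 had 124, 602 and 172 under ADT, against 428 and 299 in mock (log2 difference -0.61, 95% interval -2.57 to 1.36). Glud1 had 7894, 6604 and 5530 under ADT, against 6061 and 5638 in mock (log2 difference 0.18, 95% interval -0.30 to 0.66). Got1 had 1779, 709 and 697 under ADT, against 977 and 959 in mock (log2 difference -0.01, 95% interval -1.26 to 1.23), and its ADT values were split by a single high library.

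Of the 49 other glutamine and glutamate handling genes, all tested here, Pycr1 was called. It had 28975, 24921 and 33971 under ADT, against 451 and 466 in mock, a log2 change of 5.98 (SE 0.16, adjusted p 0.0135, limma). The call was lost whenever a library was left out, while the change stayed between 5.87 and 6.09. Oat, which can feed the same product, had on average 0.389 times the level of Pycr1 per kilobase under ADT, against 34.7 times in mock. None of 21 tested perivenous genes was called by limma, and 11 had an unadjusted p under 0.05. Among these were Notum, with 19295, 13766 and 15939 under ADT against 782 and 4099 in mock, and Cyp2e1, whose values are given above. Over all genes, 16.2% had such a p.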

How the data were processed

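RNA with an integrity number over 7.3 was sequenced in paired reads of 90 nt, per the labels' protocols. TopHat2 2.1.0, Bowtie2 2.2.6.0, HTSeq 0.6.0 and DESeq2 1.14.1 are among the tools the authors name, with the build GRCm38.p3 and without their roles, per the submitters' processing notes. The deposited values are scores: whole numbers that behave like gene counts that were scaled by a factor for each library and rounded, as judged from the values (median ratios of 0.981 to 1.01 within the first set of files). Raw counts and size factors were not used here, so depth per gene is unknown and no counting interval is given. The files were thought to hold counts, and the test planned for other units was used.

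Features without a gene number and repeats of a gene's values were left out. Values were taken as log2(value + 1), and a gene was tested with a value of at least 1 in 3 of 12 genotype libraries or 2 of 5 of the inducible model. Tests were those of limma 3.58.1 with a trended prior variance in R 4.3.3, with Benjamini-Hochberg adjustment over all genes of a comparison at 0.05. The 12 genotype libraries were fitted together (13681 genes). They include a further genotype group that, like the comparison of the combined with the Ctnnb1 group, is not reported here. Slc1a2 was tested in the 9 libraries of the first set of files (13905 genes). ADT and mock were fitted alone and compared only with each other. Levels per kilobase used merged exons of GENCODE M21. The fit was also run on simulated data, with few changed genes and the same spread set for every gene. That setting differs from these data, and no result here rests on it. Tables and figures used Python 3.11.15, pandas 2.3.3 and matplotlib 3.10.9.

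The 7 genes and all lists were chosen with earlier results of these data known. From each pathway list, up to 5 called genes per direction with the largest change were taken, with the 5 genes most like Glul, and the text names part of these. Pfas, Aldh18a1, Gulo and the marker genes given by value were added after their values were seen, the luminal sum was taken over 4 markers, and some listed genes are not reported here. Alternatives were the pseudocount, the low-value filter, the scaling, the prior variance, the libraries fitted, leaving out each library, and a replicate block.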

Additional observations from a re-analysis of the deposited data

How the results depend on the processing

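Equal totals per library left 2 of the tested genes higher and 2 lower in Ctnnb1 tumours, since Glud1 was gained and Oat and Gpt2 were lost; this scaling by construction raises every tumour value relative to wild type. The change of Asl in combined tumours, -0.40 as deposited, turned to 0.12 under equal totals. In the genotype comparisons the counts of all called genes and of called list genes, both directions together, stayed within 1.5 times under every alternative run, but equal totals changed the split: 7483 genes were higher and 2023 lower in Ctnnb1 tumours, against 3777 and 4004 as deposited, and 7674 and 1668 in combined tumours, against 3693 and 4015. The ADT comparison called 2 genes, and 5 with a pseudocount of 10, 172 without a filter, 60 with a mean of at least 50, 48 under equal totals, 49 under equal totals without the 100 highest genes, 29 with a robust prior, 0 without a trend and 0 with any library left out (0 to 0). Of the other glutamine and glutamate handling genes, 2 were called without a filter, with a mean of at least 50, under both equal totals settings and with a robust prior, where Prodh joined Pycr1, and 0 without a trend or with any library left out. Of the perivenous genes, 1 (Lef1) was called with a mean of at least 50 and under both equal totals settings. These 2 genes were named after their values were seen. With a library left out, the ADT change of Glul ranged between -0.28 (without mock replicate 1) and 0.84 (-0.21 without ADT replicate 3), and that of Got1 between -0.46 and 0.21 (0.20 without ADT replicate 2, 0.21 without ADT replicate 3). None of these was called, and the cause was not tested.

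ADT and mock share the replicate numbers 1 and 2, and the genotype groups share none. With a replicate block, 0 genes and 0 listed glutamine and glutamate handling genes were called, and the changes of Glul and Got1 were -0.21 and 0.21. Deviations of same-numbered libraries correlated at 0.27 for number 1 and 0.12 for number 2 over 14520 genes. Unmatched libraries correlated at -0.27 to 0.19, the highest being ADT replicate 3 with mock replicate 2. Each arm was centred on its mean, so the 2 mock libraries mirror each other and these values are not independent. They cannot show a pairing, and with 2 pairs the libraries share only a number.

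Depth per gene cannot be had from scaled values, so low genes such as Slc1a2 in wild type have an unknown counting error.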

Other observations

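Periportal liver genes, which lie opposite to Glul in the liver lobule, were divided. Of 13, 10 were tested in the genotype comparisons, and 2 were higher and 4 lower in Ctnnb1 tumours and 3 higher and 3 lower in combined tumours, beside 56.9% and 56.3% of all genes called. Arg1, the arginase of the urea cycle, which macrophages also make, had 552, 395 and 790 in Ctnnb1 tumours and 1395, 3836 and 1329 in combined tumours, against 112, 92 and 124 in wild type (log2 changes 2.35 and 4.13). Summed macrophage markers were higher in the same groups, as given above, and their part was not tested. Cyp2f2, a periportal cytochrome, had 260, 92 and 292 in Ctnnb1 tumours and 739, 816 and 397 in combined tumours, against 7681, 3995 and 2409 in wild type (log2 changes -4.45 and -2.75). Gpt, the cytosolic counterpart of Gpt2, had 115, 121 and 117 in Ctnnb1 tumours and 132, 178 and 130 in combined tumours, against 338, 307 and 315 in wild type (log2 changes -1.43 and -1.13). Under ADT, 0 of 13 periportal genes were called by limma, and 4 had an unadjusted p under 0.05.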
